A study of Mus musculus with 12 samples.

Results

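To set the transcriptional effect of Myc directly against that of YAP, RNA-seq of 3T9MycER;YAP fibroblasts given 4-hydroxytamoxifen (OHT) alone was compared with that of the same cells given doxycycline (dox) alone, which covers 6 of the 12 libraries of the series. The cells were serum-starved, highly confluent 3T9, an immortalized mouse embryonic fibroblast line. Every group carried MycER, a fusion of Myc that is made constitutively and is activated by OHT, and the pSlik-YAP S127A vector, from which dox induces a YAP mutant that lacks the serine through which the Hippo kinases hold YAP in the cytoplasm. The vector was introduced by viral infection and hygromycin selection. The 4 groups, with 3 libraries each, were mock, OHT (400 nM), dox (2 µg/mL) and OHT with dox, and mock served as the common reference of the OHT and dox groups. No OHT-treated cells without MycER and no dox-treated cells without the YAP vector were analysed here, so an effect of a transgene and an effect of its compound cannot be told apart. The genes compared were the 10446 of 21671 with an adjusted p in both comparisons with mock and a symbol that does not read as a calendar date.

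Myc, bound to DNA with its partner Max at E-boxes, is known for raising genes of cell growth, such as those of ribosome assembly, nucleotide synthesis and DNA replication, and for lowering others. YAP has no DNA-binding domain and acts through TEAD factors, and in crowded cells the kinases of the Hippo pathway keep it out of the nucleus. Its classical targets encode matricellular proteins, growth factor ligands and regulators of the cytoskeleton, and many growth signals in fibroblasts also pass through ERK to the immediate early genes.

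The deposited table held no value per library, so levels are given below as the mean normalized count of each group of 3, recovered from the 3 deposited comparisons with mock, and whether single libraries of the groups overlap cannot be said. Differences are on the log2 scale as OHT minus dox, with the standard error (SE) of the OHT and dox groups, and were tested by a two-sided Wald test with Benjamini-Hochberg adjustment over all 10446 genes. A gene is called where the adjusted p is under 0.05 and the absolute log2 difference is above 0.5. The labels do not state that libraries of a group are separate cultures, and p-values therefore reflect the variation among the sequenced libraries, part of which may be technical. In such bulk samples fewer cells of a kind and less RNA per cell cannot be told apart.

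The treatments were first checked on genes known to answer YAP or Myc. The mouse gene of YAP, Yap1, had mean counts of 1922 with OHT and 1983 with dox (log2 difference -0.046, SE 0.0918, Wald adjusted p = 0.812), and reads of either transgene may not count to the mouse gene. The classical YAP target Ctgf, which encodes a matricellular protein, was 1534 in mock, 1229.6 with OHT and 2395 with dox, and the Myc target Ncl, which encodes nucleolin, was 1610.4, 3082 and 2199. Ctgf was thus higher with dox by -0.96 as OHT minus dox (SE 0.0877, Wald adjusted p = 2.32e-25), whereas Ncl was higher with OHT by 0.49 (SE 0.102, Wald adjusted p = 4.18e-05), just under the minimum for a call. Cyr61, another matricellular YAP target, lay at -0.49 (SE 0.0887), just short of the same minimum, and Ankrd1 had no adjusted p in either comparison with mock. Cad, which starts pyrimidine synthesis, was higher with OHT by 0.56 (SE 0.103), but Odc1, the polyamine enzyme often used as a Myc target, had a difference of -0.33 (SE 0.0862, Wald adjusted p = 0.00179), with 1617 in mock, 1667 with OHT and 2088 with dox. Esr1, the estrogen receptor whose ligands include OHT, was at 439 with OHT and 726 with dox (difference -0.73, SE 0.266, Wald adjusted p = 0.0367), a call that was lost under 3 of 14 alternative settings. Whether reads of MycER, which every group makes, were counted to Esr1 is not known. Of 10 fibroblast markers 8 could be tested and none was called (differences from -0.24 to 0.045), while no marker of macrophages, epithelium, endothelium, muscle or adipocytes passed the filter on low counts. The summed mean count of those lists was at most 91.3, most of it from Cd68 and Cd14 of the macrophage list, where Emr1 and Tyrobp were at 0. The fibroblast marker Thy1 was near 0 in these cells, with a mean count of 0.499 over the OHT and mock libraries.

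To ask which genes separate active MycER from YAP S127A, the OHT and dox groups were compared gene by gene. Of the 10446 genes, 437 (4.18%) were called higher with OHT and 358 (3.43%) higher with dox, and 71 and 73 of these differed by more than 1 on the log2 scale. At an adjusted p under 0.05 with no minimum difference the counts were 978 (9.36%) and 895 (8.57%). The median difference over all genes was 0.013 and the median absolute difference 0.14, with a median SE of 0.115 (5th to 95th percentile 0.0794 to 0.245). The filter on low counts was uneven, with a lowest tested mean of 22.7 in the OHT comparison and 50.5 in the dox comparison. It left out 902 genes with an adjusted p in the OHT comparison only and 1 in the dox comparison only. Over the 12345 genes with recovered means, 532 were called higher with OHT and 381 higher with dox. Both the balance of calls and the largest difference, 3.52 for Dyrk3, thus depend on the genes compared. The plot of difference against mean count shows that both kinds of called gene ran across the range of expression.

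**Figure D1:**
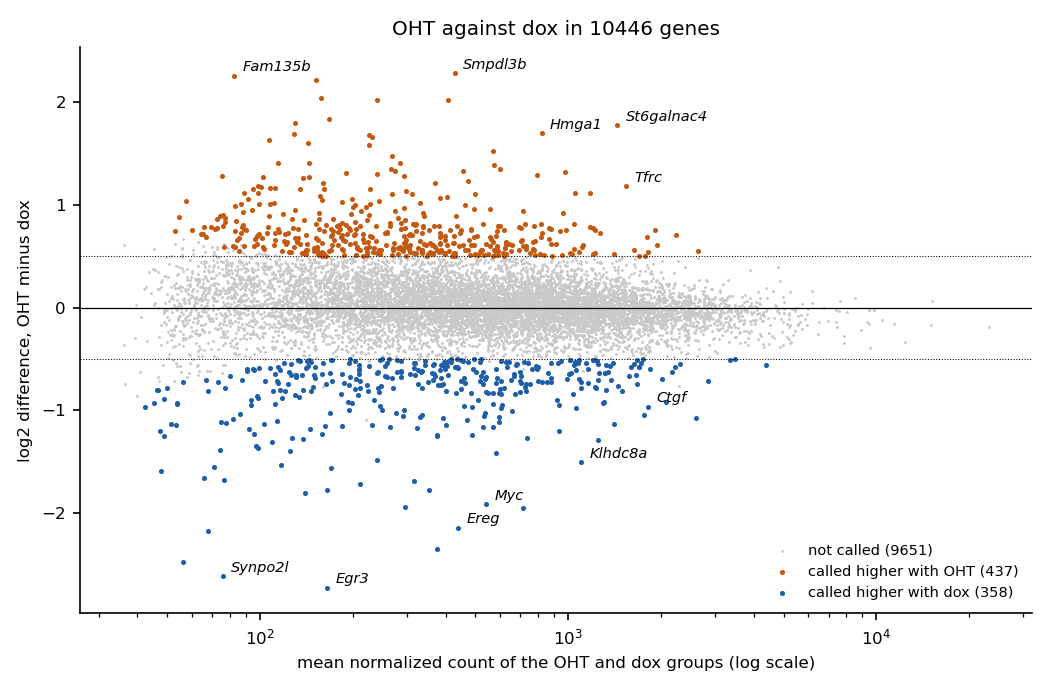
Each point is 1 of 10446 genes, placed by the mean normalized count of the OHT and dox groups (horizontal, log scale) and by the log2 difference of OHT minus dox (vertical), with dotted lines at the minimum for a call. The 437 genes called higher with OHT reach 2.28 (Smpdl3b) and the 358 called higher with dox reach -2.72 (Egr3).

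The genes furthest higher with OHT encode mostly enzymes and membrane proteins and most of them were not called with dox against mock. Smpdl3b, a membrane-anchored enzyme of the acid sphingomyelinase family, had mean counts of 91.1 in mock, 711 with OHT and 146 with dox. It rose in both comparisons with mock and was 4.87-fold higher with OHT than with dox (log2 difference 2.28, SE 0.154, Wald adjusted p = 1.58e-46). Srd5a1, a steroid 5-alpha-reductase, was 251 with OHT against 53.7 with dox and 52.3 in mock, a difference of 2.21 (SE 0.224, Wald adjusted p = 1.60e-20). Reep6, which shapes membranes of the endoplasmic reticulum, followed with 255 against 61.5 (difference 2.04, SE 0.221). Smoc1, a secreted calcium-binding matrix protein, stood at 235 in mock, 656 with OHT and 161 with dox (2.02, SE 0.276). Ankrd6, an adaptor of Wnt signaling, was 384 with OHT and 94.9 with dox, the latter close to its mock level of 99.8 (2.01, SE 0.182). Dgat2, which catalyses the last step of triglyceride synthesis, differed by 1.83 (SE 0.211), and Pm20d2, a dipeptidase, by 1.80 (SE 0.222).

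Among these genes St6galnac4, a sialyltransferase, was measured with the smallest error. It had mean counts of 604 in mock, 2233 with OHT and 652 with dox (difference 1.78, SE 0.0976, Wald adjusted p = 4.94e-70). Hmga1, an architectural chromatin protein, was 1253 with OHT and 385 with dox (1.70, SE 0.114). The sialomucin Podxl differed by 1.69 (SE 0.238) and Cdca7l, a nuclear protein that binds Myc, by 1.68 (SE 0.19). Fam135b stood apart from the other 11 in that much of its difference came from dox: it was 81.3 in mock, 137 with OHT and 28.5 with dox (2.26, SE 0.252, Wald adjusted p = 7.38e-17).

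The genes furthest higher with dox included the immediate early genes Egr3, Egr1, Maff, Klf4 and Fos and the secreted ligands Lif and Ereg. All 12 had a lower mean with OHT than in mock, which picking genes by a low OHT minus dox favours. Against mock the fall with OHT was not called for Synpo2l, Arc, Lif, Ereg and Mfap3l, nor was the rise of Hivep3 with dox. Egr3, a zinc finger immediate early factor, had mean counts of 113 in mock, 42.6 with OHT and 288 with dox, and was 6.6-fold higher with dox than with OHT (log2 difference -2.72, SE 0.395, Wald adjusted p = 3.81e-10). Synpo2l, an actin-associated protein, went from 29.0 in mock to 131 with dox and was 20.8 with OHT (-2.61, SE 0.322, Wald adjusted p = 7.06e-14). Hivep3, a large zinc finger factor, was 16.6 with OHT and 95.8 with dox, but its libraries spread widely, with a dispersion of 0.398 in the dox comparison (-2.48, SE 0.631, Wald adjusted p = 0.00107), and the call was lost when the mock libraries were counted in both errors. Arc, an immediate early gene best known from neurons, was 244 in mock, 121 with OHT and 631 with dox (-2.35, SE 0.452). Lif, a cytokine of the interleukin-6 family, was 24.5 with OHT and 111 with dox (-2.17, SE 0.329). The mock and OHT means of Synpo2l, Hivep3 and Lif lay under 50.5, the lowest mean with an adjusted p in the dox comparison. They passed that filter only through the dox group in which they are high, so their place among the tested genes is not independent of the difference. Ereg, a ligand of the EGF receptor, had, with Mfap3l, the smallest errors of these 12, at 223 in mock, 163 with OHT and 717 with dox (-2.14, SE 0.151, Wald adjusted p = 4.81e-42). Mfap3l was 159 with OHT and 546 with dox (-1.78, SE 0.151).

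**Figure D2:**
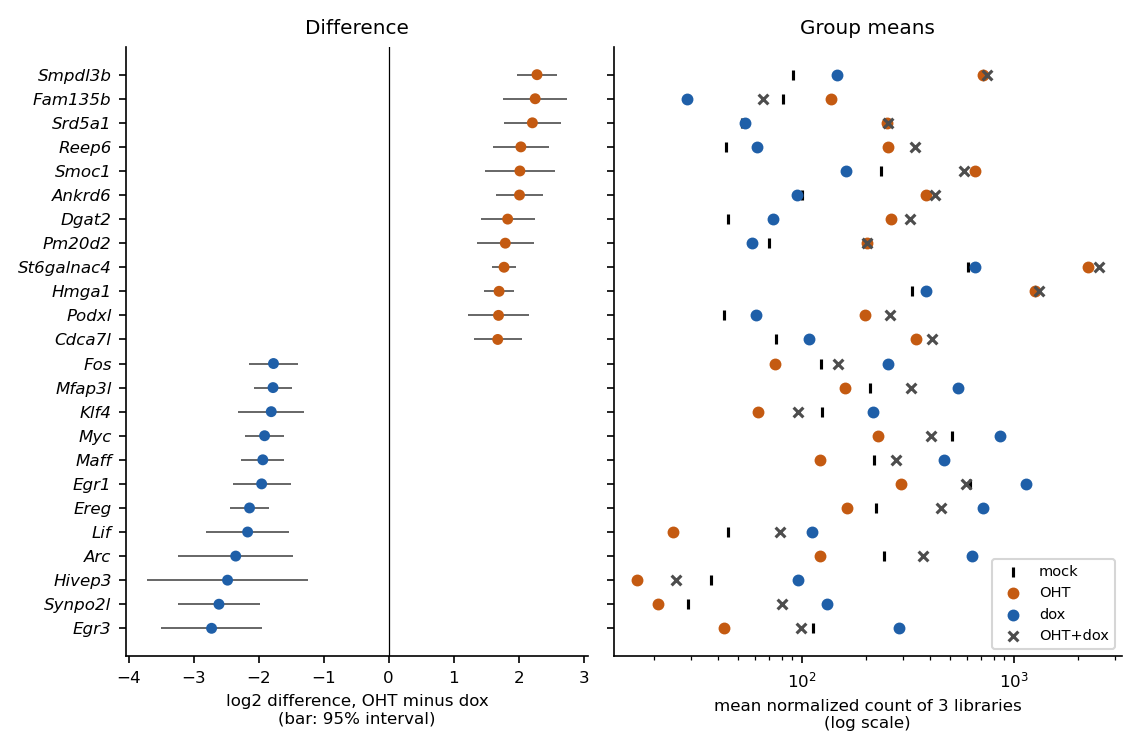
The left panel gives the log2 difference of OHT minus dox with its 95% interval for the 12 largest differences in each direction among called genes with a mean count of at least 50, and the right panel gives the mean normalized count of each group of 3 libraries on a log scale. With OHT and dox together (crosses) the genes higher with OHT stayed near their OHT level, Fam135b excepted, whereas those higher with dox lay between their OHT and dox levels.

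The promoters of these leading genes were searched for the E-box CACGTG, the site of Myc and Max, and for the TEAD core GGAATG, which reads CATTCC on the other strand. The window was the 250 bases before the start site in RefSeq (GRCm38.p6), and 14 of the 24 genes of the plot have such an entry. Of these, 1 (Klf4) holds an E-box and none holds a TEAD core, against the shares of all promoters given below. The sequences below are those of the first pair of genes with an entry in each direction and of Ncl, with Klf4 added after its match was seen. They are given 5′ to 3′ on the gene's strand, and capitals mark the E-box, which begins 182 bases before the start of Klf4.
Smpdl3b, minus strand, chr4:132757172-132757421: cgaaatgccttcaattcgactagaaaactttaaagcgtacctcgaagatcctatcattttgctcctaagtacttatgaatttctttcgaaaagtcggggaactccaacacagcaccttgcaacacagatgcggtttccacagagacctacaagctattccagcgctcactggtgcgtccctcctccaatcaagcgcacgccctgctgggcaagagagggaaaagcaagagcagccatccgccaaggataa
Srd5a1, minus strand, chr13:69611464-69611713: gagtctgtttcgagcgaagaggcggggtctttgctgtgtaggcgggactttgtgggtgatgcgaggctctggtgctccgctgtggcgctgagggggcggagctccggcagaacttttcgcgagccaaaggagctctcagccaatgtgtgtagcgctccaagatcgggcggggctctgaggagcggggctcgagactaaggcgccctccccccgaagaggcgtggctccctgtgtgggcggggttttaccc
Synpo2l, minus strand, chr14:20668355-20668604: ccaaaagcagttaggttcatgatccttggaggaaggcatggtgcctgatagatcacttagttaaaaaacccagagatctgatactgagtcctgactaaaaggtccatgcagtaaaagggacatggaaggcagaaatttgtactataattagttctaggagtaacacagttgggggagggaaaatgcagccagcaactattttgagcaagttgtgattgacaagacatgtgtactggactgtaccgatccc
Hivep3, plus strand, chr4:119814428-119814677: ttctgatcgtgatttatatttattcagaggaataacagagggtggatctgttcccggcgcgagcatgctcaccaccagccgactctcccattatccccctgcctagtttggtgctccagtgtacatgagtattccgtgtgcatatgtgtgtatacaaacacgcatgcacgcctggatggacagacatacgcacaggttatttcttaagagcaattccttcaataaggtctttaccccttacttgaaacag
Klf4, minus strand, chr4:55532476-55532725: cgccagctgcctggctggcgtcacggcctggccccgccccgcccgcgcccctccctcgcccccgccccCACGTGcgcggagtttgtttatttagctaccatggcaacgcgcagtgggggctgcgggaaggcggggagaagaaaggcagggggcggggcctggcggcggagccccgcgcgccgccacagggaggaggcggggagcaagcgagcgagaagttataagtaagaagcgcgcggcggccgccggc
Ncl, minus strand, chr1:86359456-86359705: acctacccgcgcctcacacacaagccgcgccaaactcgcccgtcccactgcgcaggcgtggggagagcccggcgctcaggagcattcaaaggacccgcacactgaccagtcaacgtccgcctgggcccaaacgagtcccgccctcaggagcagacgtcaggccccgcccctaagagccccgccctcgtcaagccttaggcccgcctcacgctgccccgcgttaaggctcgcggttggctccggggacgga

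Across all called genes the shares of promoters with a motif were close to those of all tested genes. An E-box was present in 34 of 357 promoters of genes higher with OHT (9.52%) and in 18 of 268 of genes higher with dox (6.72%), against 738 of 8416 promoters of all tested genes (8.77%). The TEAD core was present in 38 (10.6%) and 30 (11.2%) of the called genes, against 859 of all (10.2%). A promoter entry was matched for 80.6% of the tested genes, and a motif outside these 250 bases, in an enhancer for instance, was not looked for.

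To ask whether a difference came from OHT, from dox or from both, each called gene was placed by its own call against mock. These 2 comparisons share the mock libraries and are set side by side only. Over all 10446 genes, 698 (6.68%) rose and 338 (3.24%) fell with OHT, and 296 (2.83%) rose and 189 (1.81%) fell with dox. Of the 437 genes higher with OHT, 252 rose with OHT and were not called with dox, with median log2 differences from mock of 0.83 and 0.067. A further 32 rose in both, with medians of 1.62 with OHT and 0.70 with dox. In 42 genes the call came from dox alone, which lowered them by a median of -0.67 while OHT left them at -0.029, 2 genes moved in opposite directions, and 109 were called against mock in neither. The 358 genes higher with dox were more evenly divided, since 92 rose with dox alone (median 0.70, against -0.16 with OHT) and 112 fell with OHT alone (median -0.67, against 0.051 with dox). Another 16 fell with OHT and rose with dox, 1 (Mthfd2) rose in both, and 137 were called against mock in neither.

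The 16 genes that fell with OHT and rose with dox included the growth-factor-induced transcription factors Egr1, Egr2, Egr3, Maff, Klf4 and Fos. Egr1 had mean counts of 617 in mock, 292 with OHT and 1132 with dox (OHT minus dox -1.95, SE 0.228, Wald adjusted p = 1.74e-15). Maff, a small Maf factor, was 219.5, 122 and 467 in the same order (-1.93, SE 0.17). Fos, the AP-1 subunit, was 123, 74.8 and 256 (-1.77, SE 0.19). Klf4, a Krüppel-like factor, was 124, 62.0 and 217 (-1.80, SE 0.259).

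Myc itself was in this group. The reads of the mouse Myc gene averaged 508 in mock, 228 with OHT and 856 with dox, that is a change of -1.15 with OHT and 0.75 with dox on the log2 scale, and both treatments differed by -1.91 (SE 0.155, Wald adjusted p = 7.80e-32). With OHT and dox together the mean was 407. It is not known whether MycER reads were counted there too.

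The other 9 genes of this kind included Gprc5a, Klhdc8a, Mtmr10, Mical2, Gcnt4, Il1rl1, Ier2 and Ptgs2, and had differences between -1.71 (Gprc5a) and -1.06 (Ptgs2). Il1rl1, the receptor of interleukin-33, was 852 in mock, 567 with OHT and 1306 with dox (-1.20, SE 0.102). With both compounds the 16 genes had a median difference from mock of 0.016, against -0.71 with OHT and 0.78 with dox. Of the pair that went the other way, Dbp, a clock output factor, was 143 in mock, 215 with OHT, 71 with dox and 151 with both (OHT minus dox 1.60, SE 0.187, Wald adjusted p = 1.95e-15), and Fam135b is described above.

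**Figure D3:**
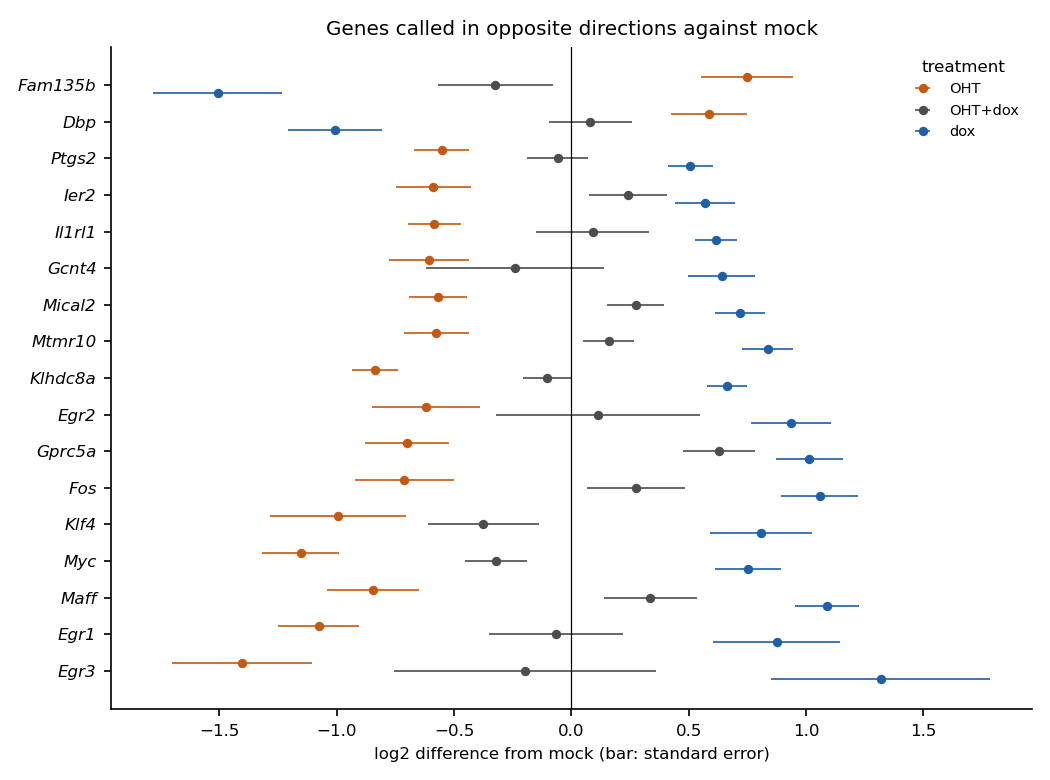
The log2 difference from mock, with its standard error, is drawn for OHT (orange), dox (blue) and OHT with dox (grey) in 17 of the 18 genes called in opposite directions by OHT and dox. Dox lies above 0 and OHT below in 15 genes, the reverse holds in Dbp and Fam135b, and the points of the combined treatment fall between the other two in all 17.

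Where genes of growth factor signaling were called, they were higher with dox, and the counts below stand against 3.43% of all genes called higher with dox. Of 13 EGF family ligands and receptors listed, 6 could be tested, and all 6 had a negative difference (median -1.08, against 0.013 over all genes) and 4 were called higher with dox, Ereg, Tgfa, Nrg1 and Hbegf. Tgfa, a ligand of the EGF receptor, was 524 in mock, 289 with OHT and 682 with dox (-1.24, SE 0.111). Nrg1, a ligand of the ErbB3 and ErbB4 receptors, was 1125, 881 and 1934 (-1.13, SE 0.095). Of 19 immediate early and AP-1 genes, 10 were called higher with dox and none higher with OHT, with a median of -0.51, and all 19 had a negative difference. In this list 9 fell with OHT, 7 rose with dox and 1, Atf3, fell with dox as well as with OHT. Of all genes 3.24% fell with OHT, 2.83% rose with dox and 1.81% fell with dox. Of 14 ERK feedback genes 4 were called higher with dox and none with OHT (median -0.41), among them the MAP kinase phosphatases Dusp5 (36.2 with OHT and 116 with dox, difference -1.68, SE 0.269), Dusp1 (-0.97, SE 0.0924) and Dusp6 (-0.74, SE 0.154). Of 22 genes of PDGF, FGF, HGF and VEGF signaling, 4 were higher with dox (median -0.21), such as the growth factors Pdgfb (641 against 1198, -0.90, SE 0.105) and Vegfa (-0.53, SE 0.0885), whose call was lost with the deposited shrunken folds.

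Of 30 canonical YAP targets listed 25 could be tested, and 6 were called higher with dox, 1 higher with OHT and 18 in neither direction (median -0.23). The shares of all genes were 3.43% higher with dox and 4.18% higher with OHT. Against mock, 4 of the 25 rose and 1 fell with dox, and 0 rose or fell with OHT. Of all genes 2.83% rose and 1.81% fell with dox, and 6.68% rose and 3.24% fell with OHT. Ereg, Inhba and Ctgf were furthest higher with dox. Inhba, the beta A subunit of activin, was 67.9 in mock, 56.6 with OHT and 128 with dox (-1.18, SE 0.243). The exception was Birc5, the mitotic inhibitor of apoptosis survivin, at 107 with OHT and 70.6 with dox (0.60, SE 0.227, Wald adjusted p = 0.0471), a call lost under 7 of 14 alternative settings. Of 26 genes of the Hippo pathway and TEAD factors, 2 were higher with dox and 22 had a negative difference (median -0.18). Against mock, 1 of these 26 rose and 0 fell with dox, and 0 rose or fell with OHT. Tead4, a DNA-binding partner of YAP, was 268 in mock, 264 with OHT and 436 with dox (-0.72, SE 0.133, Wald adjusted p = 1.73e-06). Lats2, a kinase that phosphorylates YAP, was 1836, 1544 and 2497 (-0.69, SE 0.0972).

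Genes of secreted and adhesion proteins are set here against the 3.43% of all genes that were higher with dox. Of 35 chemokines, interleukins and receptors listed 20 could be tested, and 9 were called higher with dox and none with OHT (median -0.35), led by Lif, by Tslp, a cytokine made by epithelial and stromal cells (28.8 with OHT and 68.6 with dox, -1.25, SE 0.321), and by Il1rl1. The call of Tslp was lost when the mock libraries were counted in both errors. Of 28 TGF-beta genes 4 were higher with dox (median -0.16). Among them Id1, an inhibitor of basic helix-loop-helix factors, was 312 with OHT and 604 with dox (-0.96, SE 0.123). Of 26 integrin and focal adhesion genes 4 were higher with dox (median -0.17). The integrin subunits Itga8 (-0.92, SE 0.171), Itga6 (-0.75, SE 0.159) and Itga3 (-0.75, SE 0.0855) led them, and for Itga3 the levels were 1719.8 in mock, 1248 with OHT and 2092 with dox. Of 41 collagens and matricellular genes 2 were called, Ctgf and Col8a1 (-0.68, SE 0.148), and of 34 genes of the actin cytoskeleton 1, Synpo (-0.65, SE 0.238, Wald adjusted p = 0.0368), which lost its call under 4 alternative settings. The shares called in these last lists are close to that of all genes. Jag1, a Notch ligand (1084 against 1899, -0.81, SE 0.0919), and Hes1, a Notch target (101 against 225, -1.15, SE 0.176), were higher with dox, while Fzd4, a Wnt receptor, was higher with OHT (0.61, SE 0.139), out of 20 tested of 43 Notch and Wnt genes (median -0.031). Members that could not be tested had no adjusted p in at least 1 comparison with mock or, for a few, no matching symbol in the table. A gene that is low except in 1 group can pass the filter on low counts through the group in which it is high, as Lif and Tslp did with dox.

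Called genes of DNA synthesis and cell division were higher with OHT. Of 45 DNA replication genes, 14 were called higher with OHT and none higher with dox, against 4.18% and 3.43% of all genes, with a median of 0.34, and 43 of the 45 had a positive difference. Against mock 19 of them rose with OHT and 0 with dox, by the adjusted p of the authors' DESeq2 tests and a recovered log2 difference above 0.5. By the same measure 6.68% and 2.83% of all genes rose. At an unadjusted p under 0.05 in those tests, with no minimum, 30 rose with OHT and 7 with dox. Over all 10446 genes 1900 and 1450 did, so the count with dox was close to the share of all genes. Between OHT and dox 23 were higher with OHT and 0 higher with dox at an unadjusted p under 0.05 in the Wald test, against 1591 and 1383 of all genes. Cdc6, which loads the replicative helicase, was 53.5 in mock, 144 with OHT and 59.7 with dox (1.27, SE 0.247, Wald adjusted p = 6.76e-06). Pole, the catalytic subunit of DNA polymerase epsilon, was 198, 388 and 198 (0.97, SE 0.137). Mcm5, a subunit of the helicase, was 157, 363 and 198 (0.87, SE 0.164). Of 31 DNA repair genes 6 were higher with OHT and none with dox (median 0.29), such as Palb2 (0.79, SE 0.269) and Brca2 (0.60, SE 0.146) of homologous recombination and the uracil glycosylase Ung (0.70, SE 0.198). Ung rose with both compounds, from 82.2 in mock to 213 with OHT and 131 with dox.

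Counts between OHT and dox in this paragraph stand against 4.18% of all genes called higher with OHT and 3.43% higher with dox. Of 31 mitosis genes 8 were higher with OHT and none with dox (median 0.29), although in the comparisons with mock 4 rose with OHT and 1 fell with dox. Against mock 6.68% of all genes rose with OHT and 1.81% fell with dox. Espl1, which encodes separase, was 92.3 in mock, 195 with OHT and 81.3 with dox (1.26, SE 0.207, Wald adjusted p = 4.76e-08). The spindle checkpoint kinase Bub1b (115 against 60.6, 0.93, SE 0.241) and Aurkb (93.7 against 51.7, 0.86, SE 0.266) have low counts, and both lost their call when the mock libraries were counted in both errors. That setting left 2 mitosis, 1 repair and 9 replication genes called, and Palb2, Brca2 and Ung were among those that lost it. Among 21 genes of the G1 phase the cyclin Ccne1 was higher with OHT (51.3 in mock, 149 with OHT and 73.6 with dox, 1.01, SE 0.245), and the CDK inhibitor Cdkn2b was higher with dox (-0.59, SE 0.106), with a median of 0.074. Each is 4.76% of that list, near the share of all genes. Of 31 nucleotide synthesis genes 8 were higher with OHT and none with dox (median 0.10). The purine enzyme Pfas rose in the OHT group further than in the dox group, at 1044 in mock, 2395 with OHT and 1418 with dox (0.76, SE 0.0922). Dctpp1, which clears dCTP, differed by 0.70 (SE 0.178). Ccne1 and Dctpp1 also lost their call with the mock libraries in both errors.

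Of 71 ribosome biogenesis genes 49 rose with OHT and 26 with dox against mock, where 6.68% and 2.83% of all genes did. In the authors' tests 64 rose with OHT and 67 with dox at an unadjusted p under 0.05 with no minimum. Over all 10446 genes those counts were 1900 and 1450. The gap between 49 and 26 therefore depends on the thresholds. Between OHT and dox 2 were called higher with OHT and none higher with dox, against 4.18% and 3.43% of all genes (median 0.13). By the Wald test 23 were higher with OHT and 2 higher with dox at an unadjusted p under 0.05 with no minimum. Over all 10446 genes these counts were 1591 and 1383. The pair called were Rrp9, of the U3 small nucleolar particle (305 in mock, 920.4 with OHT and 525 with dox, 0.81, SE 0.122), and the helicase Dhx37 (0.59, SE 0.136). Of 36 genes of the RNA polymerase I and III machinery 5 were higher with OHT (median 0.14). The polymerase III subunit Polr3g was the furthest, at 88.7, 412 and 155 (1.404, SE 0.175, Wald adjusted p = 1.16e-13), and Taf1c, of the polymerase I selectivity factor, was also called (0.69, SE 0.126). Of 75 mitochondrial ribosomal protein genes 1, Mrpl22, was called (0.56, SE 0.158; list median 0.14). Of 36 snRNP assembly and splicing genes 2 were called, the arginine methyltransferase Prmt5 (0.52, SE 0.0972) and Lsm7 (0.54, SE 0.138), with a median of 0.10. Both lists were near the share of all genes or below it, and Mrpl22 and Lsm7 lost their call with the mock libraries in both errors.

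None of 74 cytosolic ribosomal protein genes was called, and their differences ran from -0.094 to 0.18 (median -0.0064), with 0 in either direction at an unadjusted p under 0.05 by the Wald test. Rpl4 was 2126 with OHT and 2158 with dox, with a 95% interval of the difference from -0.21 to 0.16. None of 38 initiation factor genes was called either (median 0.0021, from -0.26 to 0.25, with 4 higher with OHT and 1 higher with dox at an unadjusted p under 0.05), and Eif4g1 had an interval from -0.14 to 0.15. The signs of both medians turn with the scaling, which moves every difference by up to 0.022. None of 29 chaperone genes was called (median 0.026, from -0.46 to 0.39), and Hsp90ab1 was 3615 and 3682 (interval -0.18 to 0.13). With no minimum, 2 chaperone genes were higher with OHT and 4 higher with dox at a Wald adjusted p under 0.05. At an unadjusted p under 0.05 the chaperone counts were 5 and 4. That unadjusted threshold was passed by 1591 and 1383 of all 10446 genes, which applies to the lists above as well. Of 37 aminoacyl-tRNA synthetases the mitochondrial enzymes Mars2 (548 with OHT and 259.6 with dox, 1.08, SE 0.132) and Nars2 (0.56, SE 0.175) were higher with OHT, and the cytosolic Cars was higher with dox (514 in mock, 459 with OHT and 755 with dox, -0.72, SE 0.106), with a median of 0.042. Nars2 lost its call with the mock libraries in both errors. Of the synthetases 5.41% were called higher with OHT and 2.70% higher with dox, near the 4.18% and 3.43% of all genes.

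Metabolic lists moved in parts, and their counts stand against 3.43% of all genes called higher with dox and 4.18% higher with OHT. Of 32 sterol and fatty acid synthesis genes 8 were higher with dox and 1, Dhcr7, was higher with OHT (0.63, SE 0.151), with a median of -0.19. None of the fatty acid genes of this list was called. At a Wald adjusted p under 0.05 with no minimum, Elovl6 (0.37), Scd1 (0.26), Acly (0.24) and Acaca (0.24) were higher with OHT. Fads1 (-0.23) was higher with dox by the same measure. The cholesterol enzymes Hsd17b7 (196 against 390.1, -0.99, SE 0.145) and Idi1 (391 against 688, -0.82, SE 0.127) were higher with dox. Against mock, 12 genes of this list rose with dox and 4 with OHT, where 2.83% of all genes rose with dox and 6.68% with OHT. Dhcr7 lost its call with the mock libraries in both errors.

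Of 27 amino acid transporters and ATF4 targets, 4 were higher with dox and 2 with OHT (median -0.18), against 3.43% and 4.18% of all genes. The ATF4 targets Trib3 (57.3 in mock, 36.3 with OHT and 106 with dox, -1.55, SE 0.271) and Chac1 (138, 126.7 and 354, -1.48, SE 0.166) and the cystine transporter Slc7a11 (-0.63, SE 0.17) were higher with dox. The glutamine transporter Slc1a5 (0.58, SE 0.118) and the mTORC1 inhibitor Ddit4 (0.78, SE 0.146) were higher with OHT. Slc7a11 lost its call with the mock libraries in both errors. Serine and one-carbon metabolism showed the same kind of split within the mitochondrial folate pathway. Mthfd2 was 238 in mock, 410.3 with OHT and 663 with dox (-0.69, SE 0.124), while Mthfd1l was 198, 735 and 378 (0.96, SE 0.129). Aldh1l2, another mitochondrial folate enzyme, was higher with dox (-0.68, SE 0.155) and Mtrr, which reactivates methionine synthase, was higher with OHT (0.77, SE 0.116), and the 19 genes of the list had a median of 0.054. Mthfd2 was also the only one of the 144 genes that rose in both comparisons with mock to be called higher with dox.

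In several other lists a single gene or a pair was called. The transferrin receptor Tfrc, which brings iron into the cell, was 485 in mock, 2143 with OHT and 946 with dox (1.18, SE 0.101, Wald adjusted p = 7.71e-29), and no other of 14 iron genes was called (median 0.032). Pdk1, an inhibitor of pyruvate dehydrogenase, was the 1 called of 25 glycolysis genes (0.73, SE 0.0988; median 0.050), and the lysosomal glucuronidase Gusb the 1 of 38 lysosome and autophagy genes (701, 1182 and 705, 0.74, SE 0.0973; median -0.026), so that neither list exceeded the 4.18% of all genes called higher with OHT. Of 14 polyamine genes Sms, spermine synthase (0.51, SE 0.114), and the lysosomal polyamine exporter Atp13a2 (0.62, SE 0.089) were higher with OHT (median 0.038), and Sms lost its call under 3 alternative settings. Of 10 genes of the Myc and Max network, Mxi1, an antagonist of Myc that binds Max, was higher with OHT (1094 in mock, 1523 with OHT and 891 with dox, 0.77, SE 0.0908) and Myc higher with dox (median 0.075).

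Clock genes were called in both directions, where 4.18% of all genes were called higher with OHT and 3.43% higher with dox. Of 15 tested, the output factor Dbp and the repressors Nr1d1 (421 in mock, 554 with OHT and 319.6 with dox, 0.79, SE 0.152) and Per3 (0.63, SE 0.115) were higher with OHT. Arntl, which encodes the activator BMAL1, was higher with dox and fell with OHT, at 123 in mock, 41.0 with OHT and 107 with dox (-1.39, SE 0.226, Wald adjusted p = 3.97e-08). Per2 was also called higher with dox (-0.51, SE 0.188, Wald adjusted p = 0.0397), which did not hold under 7 of 14 alternative settings. The median of the list was 0.0068, within the shift that scaling can give.

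Genes linked to arrest and stress were mixed, with 3.43% of all genes called higher with dox and 4.18% higher with OHT for comparison. Of 23 quiescence and antiproliferative genes 4 were higher with dox (median -0.045), with Hes1, the G-protein regulator Rgs2 (-0.87, SE 0.182) and the stress gene Gadd45g (-0.59, SE 0.117) in front. Of 21 p53 targets the kinase Plk3 (232 in mock, 144 with OHT and 319 with dox, -1.14, SE 0.146) and the stress protein Sesn2 (-0.57, SE 0.144, a call lost under 3 alternative settings) were higher with dox, and the proapoptotic Bbc3, which encodes PUMA, was higher with OHT (205, 259 and 152, 0.77, SE 0.155), with a median of -0.072. Of 19 interferon response genes 1, Parp14, was called (-0.51, SE 0.171, Wald adjusted p = 0.0197; median -0.086), and it lost the call under 4 alternative settings.

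**Figure D4:**
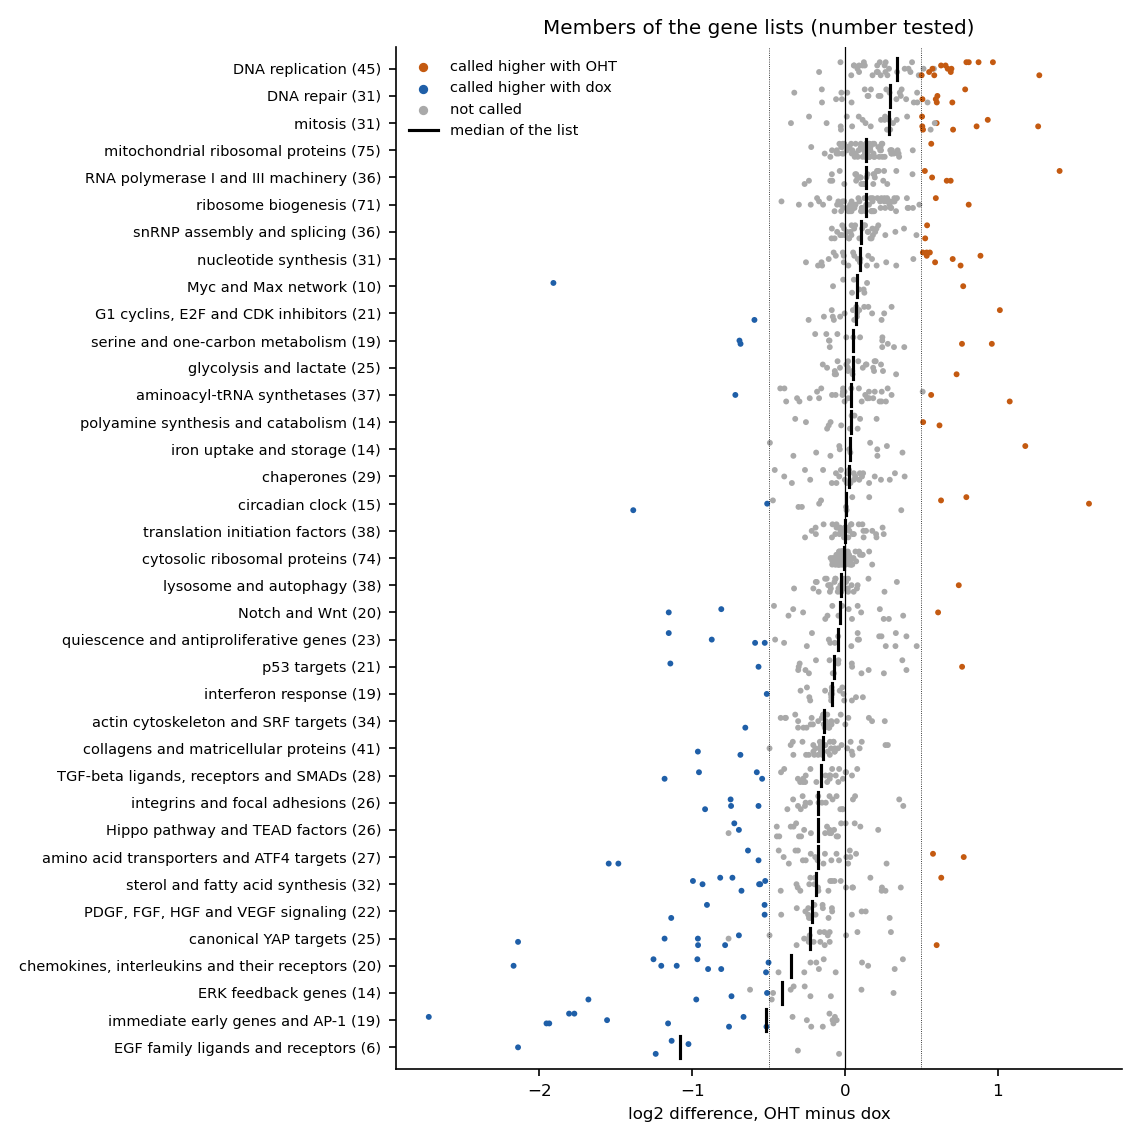
Each point is a tested member of one of the 37 gene lists, placed by its log2 difference of OHT minus dox, with called members in colour, the median of each list as a black bar and the number tested in brackets. DNA replication (median 0.34), DNA repair and mitosis lie at the OHT end, EGF family genes (median -1.08) and immediate early genes (median -0.51) at the dox end, and cytosolic ribosomal proteins and initiation factors lie around 0.

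Some genes answered both compounds to a like extent. Of the 144 genes that rose in both comparisons with mock, 32 were called higher with OHT, 1 higher with dox and 111 in neither direction, and for 67 of these 111 the whole 95% interval of the difference lay within 0.5 of 0. The 4 most abundant of the 111 were Mdn1, a ribosome assembly ATPase, Slc7a1, a transporter of arginine and lysine, and the nucleolar proteins Ddx21 and Utp20. Mdn1 was 2555 in mock, 3718 with OHT and 4065 with dox, with an interval of the difference from -0.29 to 0.033. Slc7a1 was 1445, 2596 and 2698 (interval -0.25 to 0.14). Ddx21 was 1579, 2543 and 2435 (interval -0.10 to 0.22), and Utp20 was 1249, 1838 and 1785 (interval -0.13 to 0.22). Among the 48 genes that fell in both comparisons none was called between OHT and dox, and at an unadjusted p under 0.05 in the Wald test 1 was higher with OHT and 1 higher with dox.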

How the data were processed

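RNA-seq of 3T9MycER;YAP fibroblasts covered 12 libraries, made from total RNA with the poly(A) step skipped. The kit does not mark strand, so reads of overlapping genes on opposite strands cannot be separated. Reads were aligned, per the submitters' processing notes, with TopHat2 2.0.8 to mm9 and counted with featureCounts 1.4.5-p1, and the authors fitted DESeq2. The annotation is not named in the sources. Per its header, the table that the authors deposited (21671 lines) gives, for OHT, dox and OHT+dox each against mock, the mean signal over the 6 libraries (counts divided by size factors), a log2 fold change shrunken toward 0, an adjusted p-value and a Y or N call. Single-library values and total counts per library are not in the columns used here, and 17 date-like symbols were left out.

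Here the Benjamini-Hochberg adjustment was undone to recover p-values and standard errors. The SD of the shrinkage prior, read from the peak of those errors, came to 0.446 (OHT), 0.337 (dox) and 0.619 (OHT+dox). Unshrunken folds, group means and dispersions follow from it. Compared with the OHT+dox fit, mock means were then off by median log2 gaps of 0.000714 in the OHT fit and 0.000229 in the dox fit, whereas the deposited folds gave 0.00288 and 0.00420. Folds by subtraction and from group means lay over 0.05 apart for 4 genes (Egr3, Hivep3, Mmp13 and Synpo2l). Size factors of the libraries, read from genes with 1 read, ran from 0.814 to 1.13 for OHT and from 0.942 to 1.06 for dox. OHT minus dox was tested by a two-sided Wald test with the negative binomial variance of both groups, and the shared mock libraries drop out of its error. The authors' Y or N calls were used only as an alternative. The recovery was tested on simulated data. Tools were Python 3.11.15, numpy 2.4.6, pandas 2.3.3 and scipy 1.17.1.

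The genes compared and the 37 pathway and 8 marker lists were chosen with earlier results of these data known. Named genes are the 12 largest differences in each direction among called genes with a mean count of at least 50, the leading genes of opposite direction, up to 3 called members per list and direction (or the 2 most abundant where none was called), 9 label checks and the 4 most abundant genes that rose in both. Other members are named where a called set is listed in full, and a few genes that the rule names are not reported here. No mRNA of the 20 mitochondrially encoded genes listed was matched, and none of 5 tested abundant noncoding RNAs was called.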

Additional observations from a re-analysis of the deposited data

Results flagged for a closer look

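Beyond the genes compared, 1899 genes lack an adjusted p in 1 or both comparisons with mock, but have recovered OHT and dox means. The lowest mean count with an adjusted p was 22.7 in the OHT comparison and 50.5 in the dox comparison. Their differences were tested together with the others over 12345 genes, and 98 of the 1899 were called higher with OHT and 29 higher with dox. The set is uneven. An adjusted p was present in the OHT comparison only for 902 genes and in the dox comparison only for 1. For 996 it was present only in the comparison of OHT with dox together. The counts of 98 and 29 therefore cannot be read as a result about direction. They are given here because they are signals outside the main comparison, the largest of each kind with a mean count of at least 50 in 1 group. Some genes of this set are low in every group, such as Bcam below. Others can pass the filter of a comparison through the group in which they are high, so membership of the set is not independent of the difference.

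The largest was Gpr56, an adhesion G-protein-coupled receptor, with mean counts of 23.6 in mock, 8.6 with OHT, 277 with dox and 234 with both, a difference of -5.01 (SE 0.31, Wald adjusted p = 5.88e-55). Cyp26b1, which degrades retinoic acid, was 26.9 with OHT and 62.1 with dox (-1.21, SE 0.352). Bcam, a laminin-binding adhesion molecule, was 24.3 and 53.7 (-1.14, SE 0.347). On the OHT side, the kinase Dyrk3 was 11.2 in mock, 77.7 with OHT and 6.77 with dox (3.52, SE 0.389, Wald adjusted p = 3.10e-17), and Arhgdig was 111 against 18.3 (2.59, SE 0.269). Ica1, an islet autoantigen, was 193 against 34.8 (2.47, SE 0.25), and Igsf9, a cell adhesion protein, was 149.8 against 27.5 (2.45, SE 0.243). Erc2, a protein of presynaptic active zones, was 157 against 30.8 (2.35, SE 0.229), and Nav3, a microtubule-associated protein, was 142 against 28.9 (2.30, SE 0.28). The YAP target Ankrd1, a label check, was 27.5 in mock, 11.1 with OHT, 66.5 with dox and 32.6 with both (-2.58, SE 0.412).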

How the results depend on the processing

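No called gene chosen by the naming rule reversed its direction under any of 14 alternatives, and of 106 such genes 39 kept the call under all of them. Most of the other 67 lost it only with a minimum difference of 1, under which 71 genes were called higher with OHT and 73 higher with dox, against 978 and 895 with no minimum. The genes that fell with OHT and rose with dox were then 1 and 73 in place of 16, and those of the reverse kind 0 and 15 in place of 2. Counting the mock libraries in both errors left 292 and 268 calls, all of them among the original ones. By the calls as the authors deposited them 95 genes fell with dox, in place of 189. Scaling to equal sums of counts gave 484 and 319 calls, so that 60.3% of them were higher with OHT in place of 55.0%. No paired analysis was possible because the deposited table has no value per library, and for the same reason leaving out single libraries was not run, so a value that rests on 1 library cannot be seen. The Wald test takes the authors' dispersions as known, and for low counts, such as those of the mitosis genes, the counts ranged from 2 to 10 over the alternatives that kept the minimum difference.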

Other observations

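With OHT and dox together, the gene lists that separated the compounds took different positions relative to either compound alone. All 3 treatments are compared with the same mock libraries, so their medians are set side by side with no test. DNA replication genes had median log2 differences from mock of 0.40 for OHT, 0.089 for dox and 0.53 for the combination, and nucleotide synthesis genes had 0.47, 0.34 and 0.72. Ribosome biogenesis genes had 0.58, 0.45 and 0.86. Immediate early genes had -0.57, 0.26 and -0.20, and EGF family genes -0.36, 0.58 and 0.13. Canonical YAP targets had -0.16, 0.20 and 0.17, and sterol and fatty acid synthesis genes 0.096, 0.37 and 0.37, close to dox alone in both lists. Over all genes the medians were -0.0059, 0.0039 and 0.00078.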
